A study of Mus musculus with 34 samples.

Results

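Neurotrophins are secreted growth factors of the nervous system. Brain-derived neurotrophic factor (Bdnf) is the ligand of TrkB (Ntrk2), and neurotrophin-3 (Ntf3) that of TrkC (Ntrk3), 2 receptor tyrosine kinases that support neuronal survival and synapses. TrkB is also made as the truncated form trkB.T1, which has no kinase domain and is abundant in astrocytes. The p75 receptor (Ngfr) binds all neurotrophins and, together with sortilin (Sort1), their uncleaved precursors, and p75 is known to be re-expressed by Schwann cells and other cells after nerve injury.

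A probe set is a group of short oligonucleotides on an expression array that are read together as 1 signal. The members were the probe sets whose platform gene symbol was Bdnf, Ntf3, Ngfr, Ntrk2, Ntrk3 or Sort1. The array had 24 such probe sets among 45101, and they stood for 5 of the 6 genes; no probe set named Ntf3 alone, and that gene was not analysed here. Of the 24, 15 passed the filter for testing (log2 4 or more on 4 or more of the arrays), as did 24573 probe sets in all. These 15 were 1 for Bdnf, 1 for Ngfr, 6 for Ntrk2, 4 for Ntrk3 and 3 for Sort1. The other 9 lay near the lowest value of the data in most arrays: 1 for Bdnf, 2 for Ngfr, 2 for Ntrk2 and 4 for Ntrk3.

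The tissue was thoracic spinal cord of mice aged 8 to 12 weeks on C57BL/6J (over 20 generations, per the labels), either trkB.T1 WT or trkB.T1 KO; the labels name no promoter or cell type that would restrict the deletion. Each genotype had a sham group and 3 groups with a moderate contusion, taken after 1, 3 or 7 days: in that order 4, 5, 4 and 4 arrays in WT and 4, 4, 5 and 4 in KO. The description codes of the sham arrays begin with Nav, and the sources used here do not give whether those animals had an operation. The titles number the arrays of each group as biological replicates, without saying how many animals stand behind an array. The values are log2 signals; arrays give no read depth, and the number of arrays limits the precision.

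Neuron, astrocyte and oligodendrocyte markers were bright in sham WT (mean log2 12.37 over 11 genes, 12.00 over 8 and 13.86 over 5), while 4 of 6 motor neuron markers, Chat among them, did not pass the filter. Over all tested probe sets, each of the 34 arrays was closest to the mean of the time point in its title, and 21 of 34 to that of their own group of time point and genotype. The library labelled sham KO replicate 2 went against its genotype label on Ntrk2: it read 9.46 and 8.59 on the 2 probe sets that the KO lacked, where the other 3 sham KO arrays read 3.31 to 4.91 and 2.83. The counts of called members are given with and without it, as are the values that it changes most. Day 1 WT replicates 1 and 2 are day 1 by title, while their source and time fields say day 7 and sham. The title was followed. With the 2 arrays placed by those fields, 3 rather than 11 of the members described below were called at WT day 1. The share of all probe sets called with that placing is not given here. Cell type markers also moved with injury: of 11 neuron markers, 7 fell at day 1, 11 at day 3 and 11 at day 7 in WT, and 3, 11 and 9 in KO. With 1 probe set per gene, 31.8%, 37% and 32.6% of all genes were called lower in WT at these times, and 26.4%, 38.4% and 30.1% in KO. In bulk tissue, fewer cells of a type and less RNA per cell cannot be told apart. Skeletal muscle markers (8 genes) varied widely between arrays of a group: they averaged 14 in day 3 KO replicate 3 and 11.72 in replicate 1 against 4.66 to 5.54 in the other 3, and group means ran from 4.61 (day 1 KO) to 9.84 (sham KO), with sham WT at 6.27. The part of these shifts in the results below was not tested. The difference between 3′ and 5′ actin probe sets, a sign of RNA length, moved with time as well, from 1.97 ± 0.11 (SD, n = 4) in sham WT to 1.49 ± 0.07 (n = 4) at day 3, and from 2.08 ± 0.07 (n = 4) to 1.5 ± 0.23 (n = 5) in KO.

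After injury most of the 14 receptor probe sets fell in WT at each time point and in KO at day 3, and Bdnf rose at day 1. In KO at day 7, 8 of the 14 were called lower in the fit of all arrays, and 5 without the array labelled sham KO replicate 2. In WT 11 of the 15 probe sets were called at day 1 (1 higher and 10 lower; limma, Benjamini-Hochberg adjusted p under 0.05), where 52.9% of all tested probe sets were called, 24% higher and 28.9% lower. At day 3 it was 10 of 15, all lower, against 61.8% in either direction, 26.1% higher and 35.7% lower. At day 7 it was 10 of 15 (2 higher and 8 lower) against 53.5%, 21.8% higher and 31.7% lower. The median difference of the members was −0.46, −0.70 and −0.39 on the log2 scale, beside −0.04, −0.07 and −0.08 over all tested probe sets.

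In KO the counts were 7 (1 higher and 6 lower), 13 (all lower) and 8 (all lower) of 15 at day 1, day 3 and day 7, where 44.6%, 64.8% and 47.2% of all tested probe sets were called (20.9%, 28.2% and 19.8% higher, 23.7%, 36.7% and 27.4% lower). Leaving out the array labelled sham KO replicate 2, they were 4, 10 and 5. The share of all probe sets called was not counted for that fit. The 13 at day 3 include 2 Ntrk2 probe sets whose signal the KO lacks; their KO day 3 differences from sham, −1.68 and −1.44, were −0.38 (adjusted p = 0.287) and 0.00 without that array. The medians of the members were −0.48, −0.86 and −0.50. No member's response to injury was shown to differ between genotypes: 0 of 15 passed the test of the injury-by-genotype difference at day 1, day 3 or day 7 in limma, and 0, 2 and 0 had an unadjusted p under 0.05 (background 0.0692%, 0% and 0.00407% of probe sets called); the counts of 0 were the same without that array. Between neighbouring times after injury, 1 member (Ntrk3 1447723_at) was lower at day 3 than at day 1 in WT, and 8 were lower in KO. None was higher, and 27.1% (WT) and 46.6% (KO) of all tested probe sets were called in either direction. From day 3 to day 7, 2 members in WT and 5 in KO were higher and none lower, where 19.2% and 30.4% were called in either direction. The shares by direction are not given here for these steps.

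**Figure D1:**
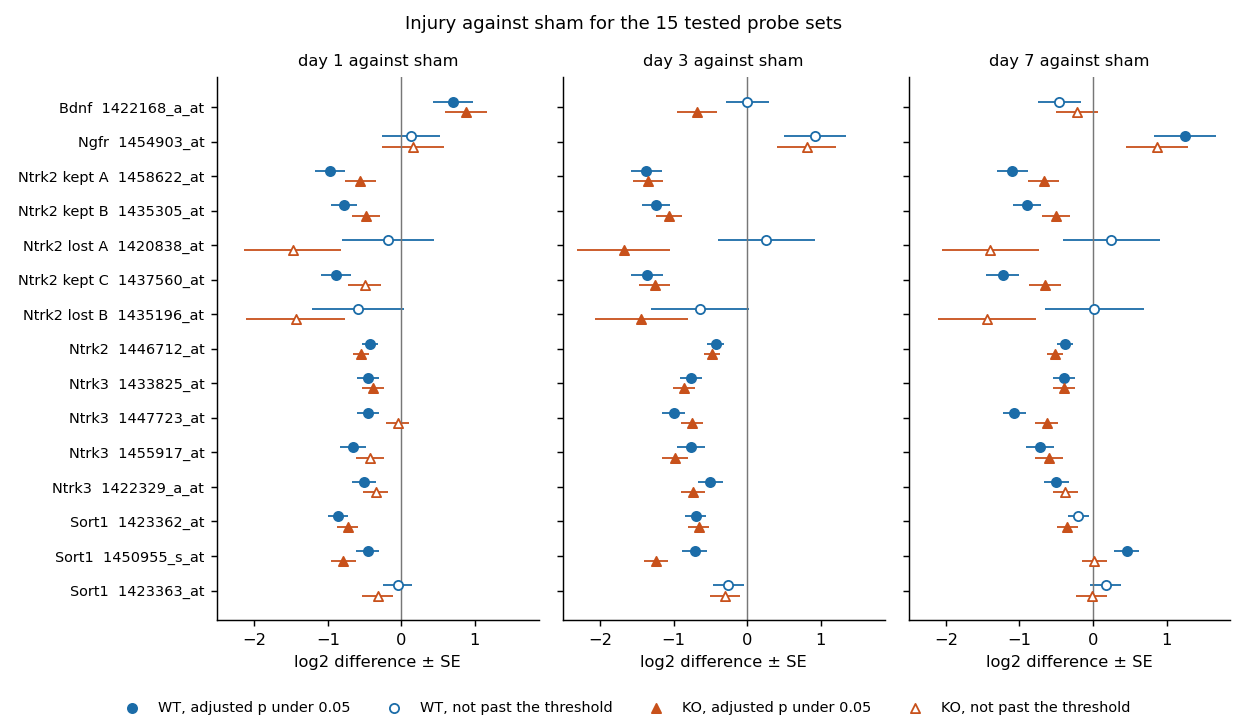
Log2 difference from sham of the same genotype ± SE (limma, all 34 arrays) for each of the 15 tested probe sets at day 1, day 3 and day 7, WT as circles and KO as triangles, filled where the adjusted p was under 0.05. Most filled symbols lie left of 0; Bdnf at day 1, Ngfr at WT day 7 and Sort1 1450955_s_at at WT day 7 lie right of it.

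Bdnf, the ligand of TrkB, was higher at day 1 than in sham in both genotypes. The Bdnf gene is read from several start sites, each with its own promoter, and one of them is known for its response to calcium and neuronal activity through the factor CREB. The RefSeq promoter table (GRCm38.p6) held 7 Bdnf starts, and 5 motifs were searched on both strands of the 300 bases around each, 250 before to 50 after it. The full CREB site TGACGTCA matched none of them, and its variant TCACGTCA matched 1, the third start, at positions −38 to −31 before it; of all 32851 promoters of that length 1.79% and 0.441% held these 2 motifs. TGANTCA (AP-1, 7.81% of promoters) matched the second start and TTCNNNGAA (STAT, 8.30%) the first, CACGTG (7.15%) matched none, and no match overlapped another. These shares are per promoter, and 7 Bdnf starts were searched, so a match to any of them is likelier than each share. The Ngfr promoter held none of the 5. The 100 bases before the third Bdnf start (chr2:109692336-109692435, plus strand) are shown with the TCACGTCA match in capitals, as the only Bdnf stretch of that length with a match. The same stretch before the first start (chr2:109674600-109674699, plus strand), which holds no match, stands beside it for comparison.
Bdnf start 3: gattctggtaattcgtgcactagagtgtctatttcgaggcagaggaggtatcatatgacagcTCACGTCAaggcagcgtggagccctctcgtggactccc
Bdnf start 1: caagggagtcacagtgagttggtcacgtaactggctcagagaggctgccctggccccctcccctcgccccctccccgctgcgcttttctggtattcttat
A match is a description of the letters only, and the files do not give which starts the probe set reads.

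On 1422168_a_at, the tested Bdnf probe set, the sham WT arrays read 6.72, 6.68, 6.89 and 6.99. The day 1 WT arrays read 7.61, 7.78, 7.58, 6.92 and 7.68. Of these, 4 lay above every sham WT array, and replicate 4 lay among them. The difference was 0.70 ± 0.27 (SE, n = 5 and 4; 1.62-fold; limma, adjusted p = 0.0325). In KO the sham arrays read 6.62, 7.07, 6.88 and 6.96, and the day 1 arrays 7.55, 8.10, 7.57 and 7.83. The KO groups did not overlap, and the difference was 0.88 ± 0.29 (SE, n = 4 and 4; 1.84-fold; adjusted p = 0.0137). The KO call held with each array left out in turn (differences 0.77 to 0.95, adjusted p 0.0165 to 0.0478). The WT call was lost without day 1 replicate 1, 2, 3 or 5 or sham replicate 1 or 2: with each array left out in turn the difference was 0.63 to 0.84 and the adjusted p ran from 0.0138 to 0.0758. It was also lost with no filter on low values (0.0646), with arrays centred on their medians (0.60, 0.0682), and with the 2 arrays of conflicting labels left out (0.58, 0.144) or placed by their other fields (0.38, 0.436).

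By day 3 Bdnf was back at or below its sham level. The day 3 WT arrays read 6.87, 7.5, 6.19 and 6.72, which spans the sham range (difference 0.00 ± 0.29, adjusted p = 0.997). The day 3 KO arrays read 6.40, 7.10, 5.21, 5.53 and 6.77. Replicates 3 and 4 lay below every other array of the study; replicate 1 was lower than the sham KO arrays, replicate 5 lay within their range and replicate 2 just above it. The same replicates 3 and 4 had the lowest neuron marker levels of the day 3 KO group, 10.49 and 10.66 over 11 genes against 11.41, 11.75 and 11.67 in replicates 1, 2 and 5. Replicate 3 also had the highest skeletal muscle markers (14), while replicate 4 had 4.80. The part of either list in the Bdnf value was not tested. KO day 3 was called lower than sham (−0.68 ± 0.27, SE, adjusted p = 0.0292), and the call was lost without day 3 replicate 3 (−0.43) or 4 (−0.51) and without sham KO replicate 2 (−0.62), 3 or 4, with adjusted p-values up to 0.136. It was also lost with array weights (−0.31, adjusted p = 0.198), with only these groups fitted (0.139), with no filter (0.0580) and with the conflicting arrays placed by their other fields (0.0676). From day 1 to day 3 Bdnf fell in KO (−1.56 ± 0.27, adjusted p = 3.46e-05); the WT difference of −0.70 ± 0.27 did not pass (adjusted p = 0.0557).

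The day 7 WT arrays read 6.02, 6.74, 6.41 and 6.28 and the day 7 KO arrays 6.61, 6.63, 6.63 and 6.77. Neither differed from sham past the threshold (−0.46 ± 0.29, adjusted p = 0.183, and −0.22 ± 0.29, adjusted p = 0.553), though the WT difference passed with array weights (−0.51, 0.0209) and with only these groups fitted (0.0304). In order of mean level the groups ran day 1 KO 7.76, day 1 WT 7.51, sham KO 6.88, sham WT 6.82, day 3 WT 6.82, day 7 KO 6.66, day 7 WT 6.36 and day 3 KO 6.20, and each group overlapped its neighbours in that order. KO did not differ from WT on Bdnf past the threshold at any time point (0.06 ± 0.29, 0.25 ± 0.27, −0.62 ± 0.27 and 0.30 ± 0.29; adjusted p 1, 0.858, 0.441 and 1). The second Bdnf probe set, 1422169_a_at, stayed below the filter and was not tested. The genes whose 8 group means, each centred, came closest to those of Bdnf were Rnf225, B3galt5 and Endod1 (root mean square differences 0.12, 0.14 and 0.14, where the Bdnf means span 1.56).

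**Figure D2:**
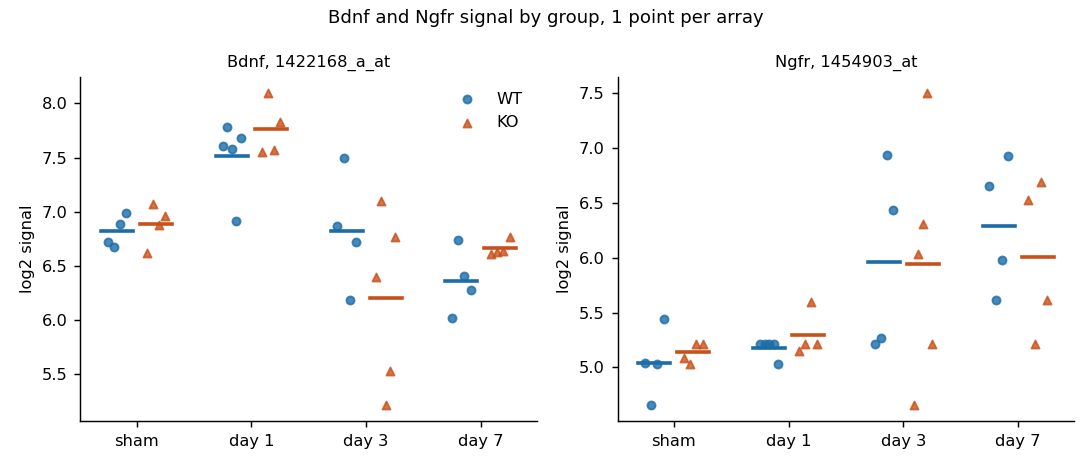
Log2 signal of Bdnf (left) and Ngfr (right) by time point, 1 point per array, WT as circles and KO as triangles, with the group mean as a bar. Bdnf is highest at day 1 in both genotypes, and the day 3 and day 7 Ngfr arrays spread from the sham level upward, to 7.51.

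Ngfr, the p75 receptor shared by all neurotrophins, rose late and unevenly. On 1454903_at the sham WT arrays read 5.04, 4.65, 5.03 and 5.44, and the sham KO arrays 5.08, 5.03, 5.22 and 5.22. At day 1 the WT arrays read 5.21, 5.22, 5.21, 5.21 and 5.03 and the KO arrays 5.15, 5.22, 5.59 and 5.21. Among the sham and day 1 arrays, 4 and 6 held exactly 1 of 3 values shared by several arrays (5.029, 5.212 or 5.215), so these readings do not resolve small differences.

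At day 3 the WT arrays read 5.21, 5.26, 6.94 and 6.44 and the KO arrays 4.65, 6.03, 6.31, 7.51 and 5.22. At day 7 the WT arrays read 6.65, 5.62, 5.98 and 6.93 and the KO arrays 6.53, 5.21, 6.69 and 5.62. At day 7 all 4 WT arrays stood above all sham WT arrays, and so did 3 of the 4 KO arrays above sham KO, while at day 3 each genotype held both low and high arrays. WT day 7 was called higher than sham (1.25 ± 0.42, SE, n = 4 and 4; 2.38-fold; adjusted p = 0.0136), a call that was lost without day 7 replicate 4 (1.04, adjusted p = 0.0578).

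The other Ngfr differences from sham did not pass: 0.92 ± 0.42 at day 3 in WT (adjusted p = 0.0588), 0.81 ± 0.40 at day 3 in KO (0.0774) and 0.87 ± 0.42 at day 7 in KO (0.0887). The WT day 3 difference passed in a fit of the wild-type arrays only (0.0313), with array weights (0.0314) and with a replicate block (0.0391), as did the KO day 3 difference with the block (0.0332) and the KO day 7 difference with array weights (0.0125) or only these groups fitted (0.0393). With 1 array left out, the day 3 difference passed in WT without day 3 replicate 1 or 2 or sham replicate 4 (lowest adjusted p 0.0252) and in KO without day 3 replicate 1 or 5 (lowest 0.0115), and the KO day 7 difference without day 7 replicate 2 (1.14, adjusted p = 0.0390). KO and WT differed by at most 0.28 in size at any time point (standard errors 0.40 to 0.42; none called). Markers of Schwann cells and nerve roots had their highest WT mean at day 1, where the Ngfr difference from sham was 0.13 ± 0.40 (SE). The mean of 4 of them was 6.48 ± 0.21 (SD, n = 4) in sham WT, 9.14 ± 0.25 (n = 5) at day 1, 8.41 ± 0.32 (n = 4) at day 3 and 9.0 ± 0.85 (n = 4) at day 7. Egr2, 1 of these 4, went from 3.43 in sham WT to 7.65 at day 1 by itself. In KO the mean of the 4 was 8.01 ± 1.14 (n = 4) in sham (8.54 ± 0.47, n = 3, without replicate 2). It was 8.67 ± 0.64 (n = 4) at day 1, 8.61 ± 0.30 (n = 5) at day 3 and 8.95 ± 0.35 (n = 4) at day 7. Macrophage and microglia markers (6 genes) went from 7.43 ± 0.12 (n = 4) in sham WT to 10.63 ± 0.09 (n = 4) at day 7. Fibroblast and meninges markers (5 genes) averaged 8.11 ± 1.32 (n = 4), 9.51 ± 0.29 (n = 5), 10.35 ± 0.49 (n = 4) and 11.04 ± 0.80 (n = 4) in WT at sham, day 1, day 3 and day 7, and 8.20 ± 1.31, 8.68 ± 0.65, 10.75 ± 0.84 and 10.62 ± 0.23 in KO (n = 4, 4, 5 and 4). The part of these lists in the Ngfr values was not tested. The genes most like Ngfr in their 8 centred means were Fkbp15, Asah1 and Cd99 (root mean square differences 0.09, 0.10 and 0.10 against a span of 1.25). The other 2 Ngfr probe sets, 1450177_at and 1421241_at, read 2.17, the lowest value of the data, in 33 and 34 of 34 arrays.

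Ntrk2, the TrkB receptor, had 2 kinds of probe sets, which changed unequally in injured WT cord. On 2 of them, lost A and lost B, the signal was gone in the KO: apart from the array labelled sham KO replicate 2, no KO array read above 4.94 on lost A, and each of them read 2.83 on lost B. On 3 others, kept A, kept B and kept C, the KO kept its signal. The plot of injury differences gives the identifier of each. The remaining tested set, 1446712_at, lay between 3.36 and 4.48, near the low end. The platform table does not say which TrkB form a probe set reads, so the names say only what the KO arrays showed.

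The kept sets fell at every time point in WT. On kept A the sham WT arrays read 11.10, 11.14, 11.09 and 11.10, and the day 1 arrays 10.09, 10.17, 10.45, 9.57 and 10.42. The day 3 WT arrays read 9.88, 9.34, 9.72 and 10.01, and the day 7 arrays 9.95, 10.16, 9.94 and 9.997. Every injured WT array lay below every sham WT array. The differences were −0.97 ± 0.20, −1.37 ± 0.21 and −1.10 ± 0.21 (SE; 1.95-, 2.58- and 2.14-fold lower; adjusted p = 0.000207, 2.88e-06 and 8.54e-05). The other kept sets gave −0.78, −1.24 and −0.90 (kept B) and −0.89, −1.36 and −1.23 (kept C), all called.

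In KO the differences of the kept sets were smaller in size at day 1 and day 7 than in WT, and the injury-by-genotype test of that did not pass. On kept A the sham KO arrays read 11.37, 11.38, 11.22 and 11.27, and the day 1 arrays 10.44, 10.82, 10.86 and 10.89. The day 3 KO arrays read 10.23, 10.52, 9.19, 9.42 and 10.45, and the day 7 arrays 10.69, 10.66, 10.61 and 10.62. All injured KO arrays lay below all sham KO arrays, and at day 3 replicates 3 and 4, those with the lowest neuron markers (and, for replicate 3, the highest muscle markers), were again the lowest. With each array left out in turn the day 3 difference ran from −1.49 to −1.16 and stayed called. The differences were −0.56 ± 0.21, −1.35 ± 0.20 and −0.67 ± 0.21 (adjusted p = 0.0313, 1.06e-06 and 0.0101), with an injury-by-genotype difference of 0.41 ± 0.29, 0.02 ± 0.29 and 0.43 ± 0.30 (adjusted p 0.998, 0.992 and 1). The day 1 call was lost without sham KO replicate 1 or 2 or day 1 KO replicate 1 (differences −0.60 to −0.46 over all arrays left out, adjusted p up to 0.115). On kept B the KO differences were −0.48, −1.06 and −0.50; the day 1 call was lost without sham KO replicate 1, 2 or 4 or day 1 KO replicate 1 or 4 (adjusted p up to 0.136), and the day 7 call without any of sham KO replicates 1, 2 and 4 and day 7 KO replicates 1, 2 and 4 (up to 0.0610). With no filter, or with the conflicting arrays placed by their other fields, these KO calls were lost as well at day 1 (kept A and kept B, 0.0610 to 0.0719) and day 7 (kept B, 0.0561 and 0.0577). On kept C the KO differences were −0.50 (adjusted p = 0.0615), −1.26 and −0.65, and the first passed without day 1 KO replicate 3 (0.0382), with array weights (0.00467), with only these groups fitted (0.00602) and with arrays centred (0.0412).

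From day 3 to day 7 the kept sets rose in KO, by 0.68 ± 0.20 (kept A, adjusted p = 0.0113), 0.56 ± 0.18 (kept B, 0.0192) and 0.61 ± 0.21 (kept C, 0.0262). In WT the same step was 0.27 ± 0.21, 0.33 ± 0.19 and 0.13 ± 0.22, none called. Averaged over the 4 conditions, KO was higher than WT on kept B (0.48 ± 0.09, adjusted p = 0.0182), while kept C (0.49 ± 0.11, 0.0536) and kept A (0.42 ± 0.10, 0.125) did not pass. The call of kept B was lost with the conflicting arrays left out (0.0522) or placed by their other fields (0.0538). Without day 3 KO replicate 3 or 4 the other 2 passed too (smallest adjusted p 0.00653 for kept C and 0.0170 for kept A), as kept C did without day 3 WT replicate 2 or 4 or day 7 WT replicate 2. Both also passed with array weights (0.000437 for kept C and 9.37e-05 for kept A). Kept C passed as well with the filter of log2 6 (0.0446) and with an intensity trend and robust prior (0.0469). In this average 3 of the 15 members were called, the other 2 being the lost sets, against 0.126% of all tested probe sets; within each single condition it was 2, the lost sets, against 0.0529% (sham), 0.549% (day 1), 0.0366% (day 3) and 0.0407% (day 7). The lost sets were named from this contrast, so their calls are a description. On kept A, kept B and kept C, KO against WT was 0.20, 0.26 and 0.22 in sham and 0.61, 0.56 and 0.61 at day 1. It was 0.22, 0.44 and 0.32 at day 3 and 0.63, 0.66 and 0.79 at day 7, none called. With array weights all 3 kept sets were called at day 1 (adjusted p 0.0113 to 0.0456) and day 7 (0.00122 to 0.0027). With only these groups fitted, kept A and kept B were called at day 7 (0.0182 and 0.0314).

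In WT lost A was not called at any time point, and lost B was below sham at day 1 and day 3 only. On lost A the sham WT arrays read 10.28, 10.19, 10.42 and 10.67, the day 1 arrays 10.31, 10.01, 10.16, 10.20 and 10.36. The day 3 WT arrays read 10.72, 10.82, 10.46 and 10.62, and the day 7 arrays 10.48, 10.85, 10.59 and 10.65. The groups overlap at all times, and the differences from sham were −0.18, 0.26 and 0.25. On lost B the sham WT arrays ran from 9.58 to 9.84, the day 1 arrays from 9.03 to 9.34, the day 3 arrays from 8.65 to 9.42 and the day 7 arrays from 9.66 to 9.92, so this set was below sham at day 1 and day 3 and overlapped it at day 7. The fit of all arrays gave −0.59 ± 0.63, −0.64 ± 0.67 and 0.02 ± 0.67 for it, with standard errors widened by the array labelled sham KO replicate 2. In the fit of the wild-type arrays only, these were −0.59 ± 0.13, −0.64 ± 0.14 and 0.02 ± 0.14 (adjusted p = 0.00151, 0.000849 and 0.934), so the set fell at day 1 and day 3 there, and the fit of all arrays but that one sham KO array also called both falls (1.66e-05 and 6.84e-06). For lost A no difference passed in the wild-type fit (adjusted p = 0.180, 0.0606 and 0.0837).

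The balance of the 2 kinds was taken in each WT array as the mean of the 2 lost sets minus the mean of the 3 kept sets. Its level depends on how brightly each probe set reads, and its change is what can be compared. It was 0.26, 0.23, 0.37 and 0.52 in sham (0.35 ± 0.13, SD, n = 4). At day 1 it was 0.86, 0.72, 0.62, 1.28 and 0.74 (0.84 ± 0.26, n = 5). At day 3 it was 1.47, 1.68, 1.52 and 1.26 (1.48 ± 0.17, n = 4), and at day 7 it was 1.53, 1.52, 1.55 and 1.62 (1.56 ± 0.04, n = 4). Every injured array lay above every sham array. The balance was higher than sham by 0.50, 1.14 and 1.21 (exact two-sided permutation tests over arrays, p = 0.0159, 0.0286 and 0.0286, each the smallest that these group sizes can give; adjusted over the 3 time points 0.0286 each). With the conflicting arrays placed by their other fields the day 1 difference was 0.46 and no longer passed (adjusted p = 0.0536). The kept mean changed by −0.88, −1.32 and −1.07 and the lost mean by −0.38, −0.19 and 0.13.

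With either lost set alone the balance still rose at each time point, by 0.70, 1.59 and 1.32 (lost A) and by 0.30, 0.68 and 1.09 (lost B). Beside these shifts, the 11 neuron markers averaged 12.37 ± 0.03 (SD, n = 4), 11.78 ± 0.22 (n = 5), 11.41 ± 0.21 (n = 4) and 11.61 ± 0.09 (n = 4) in WT at sham, day 1, day 3 and day 7. The 8 astrocyte markers averaged 12.00 ± 0.05, 11.77 ± 0.07, 12.07 ± 0.45 and 12.39 ± 0.06 in the same arrays. Of the 8, 2 were called higher and 5 lower at day 1, 2 and 2 at day 3, and 3 and 0 at day 7. Over all genes, with 1 probe set each, 26.6%, 29% and 25.4% were called higher and 31.8%, 37% and 32.6% lower in WT. The part of the cell make-up in the balance was not tested.

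**Figure D3:**
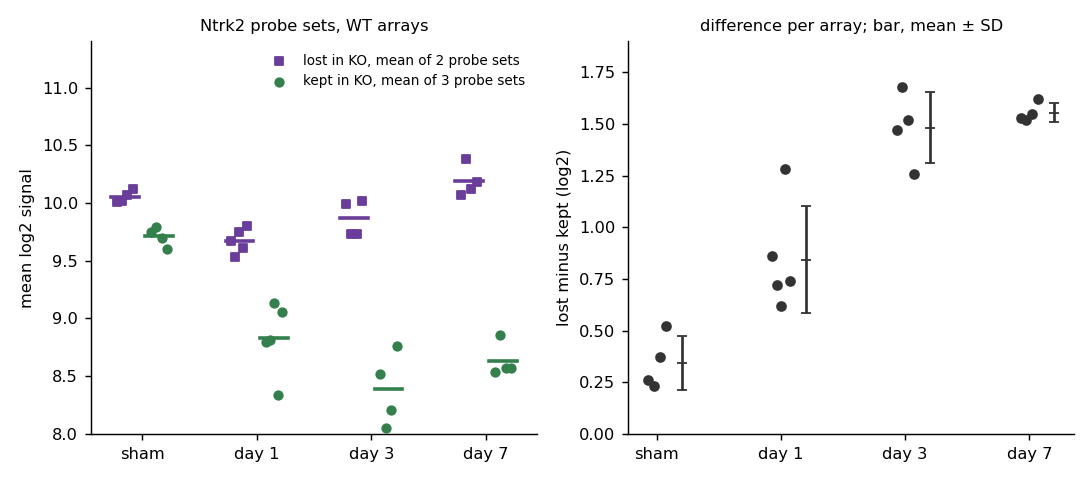
Left, mean log2 signal per WT array of the 2 Ntrk2 probe sets lost in KO (squares) and the 3 kept (circles), with group means as bars; right, lost minus kept for each WT array, with the group mean ± SD beside the points. The kept mean drops after injury while the lost mean differs from its sham level by −0.38, −0.19 and 0.13, and every injured array lies above every sham array in the right panel.

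The Ntrk2 set kept in KO that had the highest mean, kept A, came closest in its 8 centred means to Sptb, Cck and Pnmal2 (root mean square differences 0.12, 0.14 and 0.14 against a span of 1.57). The lost set lost A had no near match: the closest gene, Mid1, was 2.50 away. The dim set 1446712_at was called lower in all 6 comparisons with sham (−0.55 to −0.38), but 11 of its 34 values were 1 of 3 repeated low readings, so those sizes are only roughly measured. The other 2 Ntrk2 sets, 1420837_at and 1444121_at, read 2.17 in 22 and 29 of the 34 arrays.

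Ntrk3, the TrkC receptor for neurotrophin-3, fell in injured cord on all 4 tested sets in WT at all 3 times and in KO at day 3. On 1433825_at the sham WT arrays read 8.61, 8.68, 8.77 and 8.55, the day 1 arrays 8.16, 8.10, 8.25, 7.90 and 8.53. The day 3 WT arrays read 7.88, 7.64, 7.98 and 8.04 and the day 7 arrays 8.33, 8.18, 8.11 and 8.43. The injured WT arrays lay below every sham WT array. The differences were −0.46 ± 0.15, −0.77 ± 0.15 and −0.39 ± 0.15 (SE; adjusted p = 0.00904, 9.59e-05 and 0.0330), and the day 7 call was lost without day 7 replicate 2 or 3 or sham replicate 2 or 3 (adjusted p up to 0.0931). With the conflicting arrays placed by their other fields, the WT day 1 calls of all 4 sets were lost (−0.39 to −0.30, adjusted p 0.151 to 0.289), and so was the day 7 call of this set (0.105), which was also lost with no filter (0.0596).

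On the same set the sham KO arrays read 8.62, 8.78, 8.54 and 8.66 and the day 1 KO arrays 8.15, 8.35, 8.29 and 8.26. The day 3 KO arrays read 7.95, 8.35, 7.28, 7.37 and 8.00 and the day 7 arrays 8.23, 8.33, 8.15 and 8.30. All injured KO arrays lay below all sham KO arrays, with day 3 replicates 3 and 4, the former the array with the highest muscle markers, again lowest. The differences were −0.39 ± 0.15, −0.86 ± 0.15 and −0.40 ± 0.15 (adjusted p = 0.0407, 8.01e-06 and 0.0340). The day 1 call was lost in 6 of 8 fits that left out 1 array (sham KO replicates 1, 2 and 4, day 1 KO replicates 1, 3 and 4; up to 0.104) and the day 7 call in 5 of 8 (sham KO replicates 1, 2 and 4, day 7 KO replicates 1 and 3; up to 0.0921). Both were also lost with no filter (0.0738 and 0.0621) and with the conflicting arrays placed by their other fields (0.0675 and 0.0576).

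The set 1447723_at went lowest at day 7 in WT, with arrays at 6.68, 6.84, 6.77 and 7.02 against 7.95, 8.03, 7.95 and 7.66 in sham (−1.07 ± 0.16, SE; 2.10-fold lower; adjusted p = 2.97e-06). In KO its day 1 arrays, 7.44, 7.47, 7.74 and 7.74, overlapped the sham KO arrays, 7.42, 7.89, 7.85 and 7.45 (−0.05 ± 0.16, adjusted p = 0.812), and it was lower at day 3 (−0.75) and day 7 (−0.63). On 1455917_at and 1422329_a_at the WT differences ran from −0.76 to −0.50, all called. The call of 1422329_a_at was lost at day 3 with the conflicting arrays placed by their other fields (−0.39, 0.0635) and at day 1 with them left out (−0.41, 0.0769). In KO the day 3 differences were −0.98 and −0.74, both called, and those of day 1 were −0.43 and −0.35, neither called. Of those of day 7, −0.60 and −0.38, the first was called. The day 1 differences passed with array weights (0.00217 and 0.0425) or only these groups fitted. The day 7 difference of 1422329_a_at passed without day 7 KO replicate 1. It also passed with arrays centred (−0.50, 0.0159), with quantile normalization (−0.42, 0.0408) and with array weights (−0.37, 0.00971). KO and WT did not differ past the threshold on any of the 4 sets in any condition (−0.27 to 0.20). The closest genes to 1433825_at in the 8 centred means were Fbxo2, Camk2g and Gramd1b (root mean square differences 0.03, 0.03 and 0.04 against a span of 0.86). The 4 other Ntrk3 sets were below the filter.

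Sort1, sortilin, which carries precursor neurotrophins in the cell and pairs with p75 on its surface, fell at day 1 and day 3 and had come back in part or in full by day 7. On 1423362_at the sham WT arrays read 9.77, 9.69, 9.74 and 9.80 and the day 1 arrays 8.84, 8.71, 8.95, 8.94 and 9.02. The day 3 WT arrays read 9.20, 8.31, 9.31 and 9.38 and the day 7 arrays 9.58, 9.67, 9.33 and 9.64. All injured WT arrays lay below all sham WT arrays, the day 7 arrays by the least. The differences were −0.86 ± 0.14, −0.70 ± 0.14 and −0.20 ± 0.14 (adjusted p = 8.02e-06, 0.000132 and 0.259). Day 7 was higher than day 3 by 0.51 ± 0.14 (adjusted p = 0.0136).

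In KO 1423362_at read 9.78, 9.84, 9.67 and 9.75 in sham and 8.82, 9.05, 9.13 and 9.11 at day 1. It read 8.95, 9.32, 8.87, 9.12 and 9.25 at day 3 and 9.44, 9.41, 9.48 and 9.29 at day 7, and no injured array reached the sham range. The differences were −0.73, −0.66 and −0.35 ± 0.14 each (adjusted p = 0.000183, 0.000130 and 0.0471). The day 7 call was lost whichever of the 8 arrays of the 2 groups was left out (adjusted p 0.0517 to 0.112).

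The second Sort1 set, 1450955_s_at, whose suffix marks probes shared by several transcripts, took a different course from 1423362_at. It fell less at day 1 in WT and further at day 3 in KO, and in WT it stood above sham at day 7. The sham WT arrays read 6.77, 6.61, 6.79 and 6.78, the day 1 arrays 6.53, 5.89, 6.53, 6.32 and 6.12, the day 3 arrays 6.23, 5.87, 6.17 and 5.86. The day 7 WT arrays, at 7.33, 7.19, 6.97 and 7.29, lay above every sham WT array. The differences were −0.46 ± 0.16, −0.71 ± 0.17 and 0.46 ± 0.17 (adjusted p = 0.0147, 0.000558 and 0.0218). The day 1 call was lost without day 1 replicate 2 (−0.37, adjusted p = 0.0556), and the day 7 call without day 7 replicate 1 or 4 or sham replicate 2 (up to 0.0615) and with arrays centred on their medians (0.32, 0.116). The day 1 call was also lost with the conflicting arrays placed by their other fields (−0.25, 0.389). In KO the sham arrays read 7.14, 7.26, 7.03 and 7.07, the day 3 arrays 5.73, 5.88, 5.66, 5.52 and 6.65, and the day 7 arrays 7.15, 7.12, 7.13 and 7.17, so that day 7 overlapped sham. The KO differences were −0.79 ± 0.17, −1.24 ± 0.16 and 0.02 ± 0.17 (adjusted p = 0.000342, 1.02e-07 and 0.942). From day 3 to day 7 the set rose by 1.16 ± 0.17 in WT (adjusted p = 1.06e-05) and 1.26 ± 0.16 in KO (1.04e-06).

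The third Sort1 set, 1423363_at, was called in none of the comparisons with sham (−0.32 to 0.17), so the 3 sets disagree in size; its KO day 3 difference passed without day 3 KO replicate 5 and with arrays centred (−0.47, 0.0471). The sham KO arrays stood above the sham WT arrays on 1450955_s_at (0.38 ± 0.17), which did not pass (adjusted p = 1). The closest genes to 1423362_at were Tagln3, Septin4 and Klhl13 (root mean square differences 0.06, 0.07 and 0.07 against a span of 0.87).

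**Figure D4:**
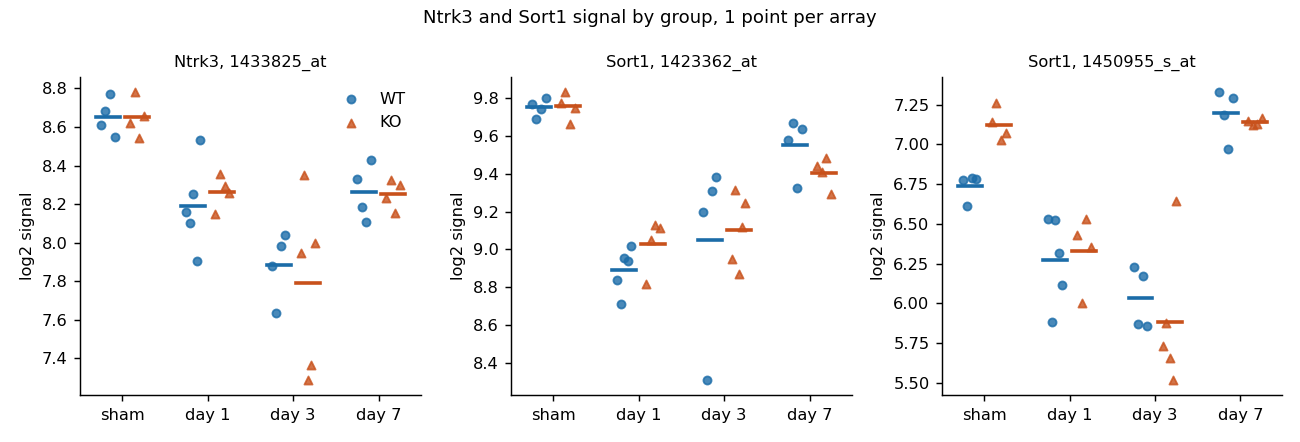
Log2 signal of Ntrk3 1433825_at, Sort1 1423362_at and Sort1 1450955_s_at by time point, 1 point per array, WT as circles and KO as triangles, with group means as bars. Ntrk3 and both Sort1 sets are lower at day 1 and day 3 than in sham, and both Sort1 sets are higher at day 7 than at day 3.

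The other genes of the pathway were read from fixed lists, with 1 probe set per gene. In such a count over all 11998 genes 26.6%, 29% and 25.4% were called higher and 31.8%, 37% and 32.6% lower in WT at day 1, day 3 and day 7, and 23.1%, 30.7% and 22.9% higher and 26.4%, 38.4% and 30.1% lower in KO. Without the array labelled sham KO replicate 2 the KO counts of the sortilin and cleavage lists were the same as given below. The p75 list then had 2 higher and 3 lower, 4 and 5, and 4 and 2 at day 1, day 3 and day 7, the Trk adaptor list 7 and 4, 6 and 6, and 4 and 3, and the activity list 8 and 0, 8 and 2, and 7 and 2. The KO values given below moved by at most 0.24 without it, apart from Egr2, and of the genes named with KO values only Adam17 at day 1 lost its call (adjusted p = 0.0616). Ntf5, another ligand of TrkB, was below the filter. Of the 4 other sortilin family receptors, 1 rose and 3 fell in WT at day 1 and at day 3, and 1 and 1 at day 7 (KO: 1 and 1, 1 and 3, 0 and 1), with medians of −0.61, −0.78 and −0.44 in WT and −0.49, −1.17 and −0.46 in KO. Sorcs2, a partner of p75, rose in WT at day 1 by 1.07 (adjusted p = 9.79e-08) and at day 3 by 1.05 (2.44e-07), and in KO by 0.81 and 0.84. Sorl1, Sorcs1 and Sorcs3 all fell in WT at day 1 (−0.58, −0.63 and −0.63) and day 3 (−0.85, −0.71 and −1.13). In KO at day 3 the same 3 fell by 0.93, 1.51 and 1.42 on the log2 scale; at KO day 1 Sorcs1 and Sorcs3 did not pass, and at day 7 Sorcs3 alone of the 3 passed, in both genotypes.

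Of 10 tested genes for proneurotrophin cleavage, 2 rose and 4 fell in WT at day 1, 4 rose and 3 fell at day 3, and 4 rose and 2 fell at day 7; the KO counts were 3 and 3, 4 and 2, and 4 and 2. The risers included the proconvertase Furin, which cuts precursors inside the cell (0.86, 1.08 and 0.78 in WT). Plat, the tissue plasminogen activator, rose by 0.45, 0.86 and 1.17 in WT and by 0.55, 0.66 and 1.17 in KO. Plau, the urokinase, which stood at 2.25 in sham WT, near the low end, was called at day 3 and day 7 (at least 1.96 and 3.52 in WT, 2.69 and 3.69 in KO), and so was the matrix protease Mmp2 (1.03 and 2.47 in WT, 1.73 and 2.14 in KO). The neuronal inhibitor of tissue plasminogen activator, Serpini1, fell by 0.71, 1.22 and 0.66 in WT on the log2 scale, and the proconvertase Pcsk6 by 0.85, 0.86 and 0.74. The median difference of the list was 0.01, −0.06 and 0.15 in WT and −0.02, 0.54 and 0.01 in KO.

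Of 13 partners and adaptors of p75, 6 rose and 4 fell in WT at day 1, 7 and 5 at day 3 and 4 and 4 at day 7 (KO: 4 and 4, 4 and 5, 4 and 3), with medians of 0.03, 0.14 and 0.13 in WT and −0.03, 0.06 and 0.13 in KO. Adam17, the protease that sheds the p75 ectodomain, rose by 0.53, 1.19 and 1.57 in WT and by 0.37, 1.56 and 1.41 in KO. Rhoa, a GTPase that p75 acts on, rose by 0.44, 0.86 and 0.58 in WT. The p75 co-receptor Lingo1 fell by 0.89, 1.05 and 0.60 on the log2 scale in WT, and the myelin ligand Omg by 1.02, 0.85 and 0.57. Bex3, a p75-binding protein, fell by 0.52, 0.72 and 0.61 in WT on the log2 scale.

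The adaptors and signalling genes of Trk receptors were split. Of 19 tested, 6 rose and 7 fell in WT at day 1, 8 and 4 at day 3 and 3 and 3 at day 7 (KO: 9 and 6, 7 and 7, 5 and 4), with medians of 0.11, 0.04 and 0.12 in WT and 0.04, 0.03 and 0.11 in KO. The docking protein Gab2 rose at all 3 times in WT (0.45, 0.47 and 0.47) and the adaptor Grb2 by 0.25, 0.25 and 0.29. The adaptor Sh2b2, near the low end in sham WT at 2.58, rose by at least 0.86, 1.45 and 0.95. The exchange factor Sos1 fell by 0.67, 1.20 and 0.62 on the log2 scale, Slitrk5, a TrkB co-receptor, by 0.65, 0.74 and 0.72, and Frs3 by 0.35, 0.58 and 0.57 in WT. Gab1 fell at day 1 (−0.70) and day 3 (−0.39).

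Genes that follow neuronal activity or BDNF signalling rose in most cases. Of 13 tested, 9 rose and 1 fell in WT at day 1, 9 and 2 at day 3 and 8 and 2 at day 7 (KO: 8 and 0, 9 and 2, 7 and 2), with medians of 1.39, 1.05 and 0.64 in WT and 1.26, 0.89 and 0.44 in KO, beside −0.05, −0.06 and −0.06 over all genes in both genotypes. The immediate early transcription factor Fos rose by 2.92, 2.05 and 1.17 in WT and 2.63, 1.71 and 0.86 in KO. Vgf, a secreted neuropeptide precursor induced by BDNF, rose by 2.07, 1.9 and 1.05 in WT and 1.76, 1.4 and 0.58 in KO, and Dusp6, a phosphatase of ERK kinases, by 2.05, 1.92 and 1.47 in WT. Crem, a relative of CREB, rose by 1.99, 1.92 and 1.11 and Egr1 by 1.69, 1.05 and 0.58 in WT. The synaptic immediate early gene Arc fell by 0.45, 0.80 and 0.77 in WT on the log2 scale, and Homer1 fell at day 3 (−0.32) and day 7 (−0.36).

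Egr2, an early response transcription factor, rose by 4.22, 3.82 and 4.22 in WT and by 2.03, 1.9 and 1.94 in KO (1.42, 1.28 and 1.33 without the array labelled sham KO replicate 2), where it was higher in sham already (KO against WT 2.19 ± 0.36, adjusted p = 0.00507; 2.8 ± 0.26, adjusted p = 1.15e-07, without the array labelled sham KO replicate 2); the injury-by-genotype difference did not pass with all arrays (−2.19, −1.92 and −2.28; adjusted p 0.111, 0.573 and 0.523) and passed without that array (−2.80, −2.54 and −2.90; 0.000153, 0.00107 and 0.000128). Egr2 is also a gene of Schwann cells and is in that marker list, whose sham KO arrays ran from 6.40 to 8.90 and sham WT arrays from 6.23 to 6.74. The part of nerve root tissue in the Egr2 values was not tested. In the fit of all arrays no other gene of the pathway lists differed between KO and WT past the threshold in any condition or in their average.

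**Figure D5:**
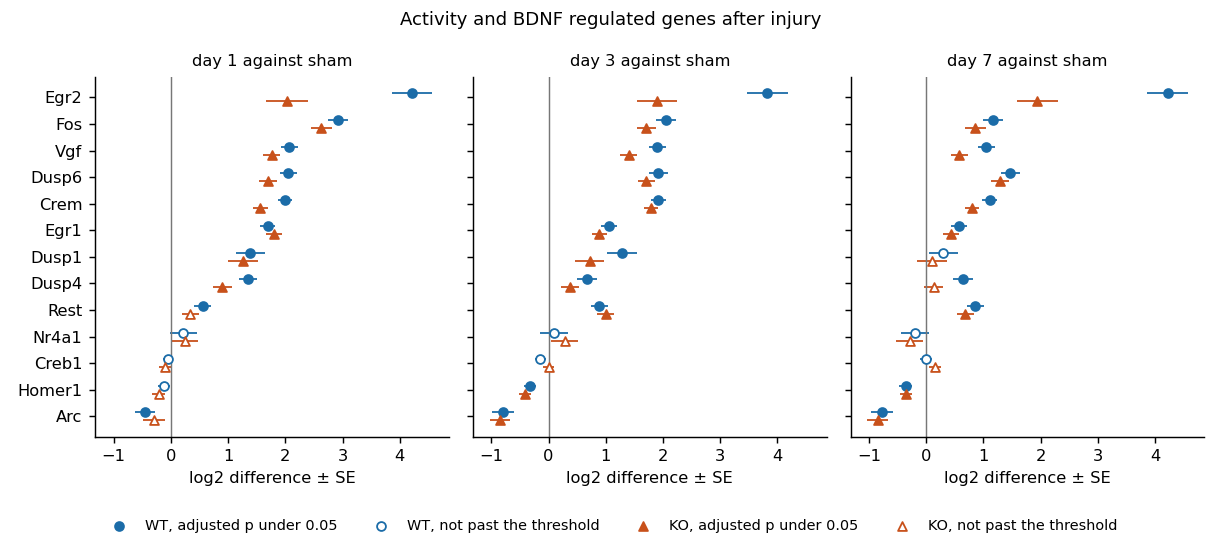
Log2 difference from sham ± SE (limma) for the 13 tested genes of the activity and BDNF list at day 1, day 3 and day 7, WT as circles and KO as triangles, filled where the adjusted p was under 0.05. Egr2, Fos, Vgf, Dusp6 and Crem lie furthest right at day 1 in WT, and Arc lies left of 0 throughout.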

How the data were processed

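Per the labels, biotin-labelled cRNA was prepared from 1 µg of Trizol-extracted RNA and hybridised to Affymetrix arrays. The authors' deposited values were used as given: log2 signals computed by GCRMA (version not given), per the submitters' processing notes. They ran from 2.17 to 15.904, and 33.7% lay within 0.1 of the lowest, so differences near that floor are understated. Gene names came from the platform annotation table (34958 probe sets with 1 gene, 932 with several, 9211 with none, not used for names), matched by Entrez identifier to RefSeq (GRCm38.p6), which also gave the promoter sequences; 0 symbols changed. The files name no genome build, and no gene coordinates are given for probe sets.

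The members and gene lists were chosen with earlier results of these data known. All members are described. Of each list, some of the genes past the threshold are named, on the probe set with the highest mean. They are not in every case those with the largest differences: Mmp3, called higher by 1.57 in KO at day 1, is not among them. Arrays were grouped by title; for day 1 WT replicates 1 and 2 the source and time fields say day 7 and sham, and both readings were run as alternatives. Array controls (64) were left out. One mean per group (8 groups, 34 arrays) was estimated in limma 3.58.1 (R 4.3.3; lmFit, eBayes; 26 residual and 2.62 prior degrees of freedom), with Benjamini-Hochberg adjustment over 24573 probe sets and a threshold of 0.05. The Ntrk2 balance was compared by exact permutation over arrays. Where replicates are not shown to be separate animals, p-values measure the spread between arrays only. The fit was tested on simulated data for WT day 1 against sham (24573 probe sets with independent noise, 100 planted changes of each size). Changes of 0.5 were called in 50% of cases and of 1 in 81%. In the data 52.9% of probe sets were called in that comparison. The adjustment is stricter where few probe sets change, so these rates do not give the sensitivity of the comparison. Alternatives were the filter, array centring, quantile normalization, array weights, an intensity trend with a robust prior, a replicate block, only the arrays compared, the conflicting labels and each array left out; the fit of wild-type arrays only and the repeat of every comparison without sham KO replicate 2 were added after seeing the data.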

Additional observations from a re-analysis of the deposited data

Results flagged for a closer look

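Among 124 member-by-group sets of 4 or 5 arrays, 14 had 1 array far from the rest by Dixon's test, which flags about 1 in 20 sets by chance. On Bdnf 1422168_a_at, day 1 WT replicate 4 read 6.92 (others 7.58 to 7.78) and day 7 KO replicate 4 read 6.77 (others 6.61 to 6.63). On Ngfr 1454903_at, day 1 WT replicate 5 read 5.03 (others 5.21 to 5.21) and day 1 KO replicate 3 read 5.59 (others 5.15 to 5.21). On the Ntrk2 probe sets, day 1 KO replicate 1 was low on 3: 10.44 on kept A (others 10.82 to 10.89), 9.82 on kept B (10.18 to 10.22) and 3.36 on 1446712_at (3.72 to 3.75). Sham WT replicate 2 read 11.14 on kept A (11.09 to 11.10), day 1 WT replicate 5 read 3.90 on 1446712_at (3.72 to 3.77), and the library labelled sham KO replicate 2 read 8.59 on lost B (2.83 in the others). On Ntrk3, day 1 WT replicate 1 read 7.60 on 1447723_at (7.36 to 7.42) and day 1 KO replicate 4 read 6.36 on 1455917_at (6.70 to 6.71). On Sort1, sham WT replicate 2 read 6.61 on 1450955_s_at (6.77 to 6.79) and sham WT replicate 3 read 5.57 on 1423363_at (5.87 to 5.91).

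The second Bdnf probe set, 1422169_a_at, which the filter left out, averaged 3.45 over the day 1 KO arrays, above its sham mean of 2.99 in each genotype. This difference was not tested.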

How the results depend on the processing

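No member changed direction past the threshold under any alternative run. Of the single-member values 4565 kept their side of the threshold, 107 lost it and 69 gained it. With the 2 conflicting arrays grouped by source and time, the counts of called members fell to 3 (WT day 1), 4 (KO day 1) and 5 (KO day 7), and the day 1 balance was 0.46 (adjusted p = 0.0536); this grouping places day 1 titles in sham and day 7. With only the arrays compared, KO day 1 had 11 called, the sham genotype comparison 0 and that of day 7 4, and the day 7 injury-by-genotype difference 1 (Ntrk2 kept A). With array weights KO against WT had 5 at day 1, 5 at day 7 and 5 in the average. Leaving out 1 array gave 4 to 9 for KO day 1 (4 without sham KO replicate 2 or day 1 KO replicate 1), 5 to 9 for KO day 7 (5 without sham KO replicate 2), 3 to 5 for the average (5 without day 3 KO replicate 3 or 4) and a day 7 balance of 1.17 to 1.27 (1.27 without sham WT replicate 4). The share of all probe sets called under each alternative is not given here, so these counts cannot be read as particular to the members. The cause of these shifts was not tested.

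Replicate numbers did not pair the arrays: same-numbered arrays correlated at −0.45 to 0.43 (mean 0), and 5 of 34 lay closest to their own number. With the replicate number as a block the counts were 11 and 8 at day 1 (WT, then KO), 11 and 13 at day 3 and 10 and 7 at day 7. The share of all probe sets called with the block is likewise not given here.

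Readings at repeated low values limit what can be measured on Ngfr and on 1446712_at, and GCRMA's own settings could not be varied.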
